A study of Strongylocentrotus purpuratus with 5 samples.

Results

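A set of 985 chromatin regions of the purple sea urchin *Strongylocentrotus purpuratus* was called accessible in 20 h embryos and lay far from any region that was called accessible in 12 h embryos. They were chosen from the 258515 regions called on the pooled 20 h libraries, of which they made up 0.381%. A region was taken when more than 5000 bp separated it from every region of the pooled 12 h list on its scaffold, when that scaffold held a 12 h region, and when it overlapped a peak of both biological replicates at 20 h. They are called replicated far regions here. Absence from the 12 h list and presence in the 20 h libraries chose them, so that their stage pattern, support, fold enrichment and p are a description of these lists and were not tested.

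The assay was ATAC-seq, which maps accessible chromatin with a transposase that inserts sequencing adapters into exposed DNA. Embryos were grown at 15 °C, untreated and without any genetic change named in the labels, and whole embryos were sampled at 12 h and 20 h. The labels name the hatching blastula at both times, while the paper speaks of early and late blastula. The 20 h stage had 3 libraries, of which the first and the second technical replicate came from biological replicate 1, with nuclei prepared by a protocol described elsewhere, and a single library came from replicate 2, with nuclei from a density gradient. The 12 h stage had 2 biological replicates, both from density gradient nuclei, and enters only as 1 list of 238838 regions called on pooled libraries. Preparation and replicate cannot be told apart at 20 h, nor can batch and stage. In whole embryos, a site open in few cells cannot be told apart from a site that is weakly open in many. The lists hold no read counts, the 12 h libraries were the deeper ones, and with 1 pooled list at 12 h no test between the stages could be made.

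Accessible chromatin away from promoters commonly marks enhancers, silencers and other cis-regulatory elements, where transcription factors displace nucleosomes. During the blastula stages of the sea urchin, regulatory genes divide the embryo into skeletogenic mesoderm, endoderm and ectoderm territories, and new elements of the gene regulatory network come into use. No annotation or genome sequence of assembly version 3.1 was used here, so that regions are given by scaffold and 1-based position, without sequence and without a nearest gene.

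Replicated far regions were scarce. The sequence more than 5000 bp from any 12 h region spanned 191 Mb, or 22.2% of the scaffolds that held a 12 h region, with the highest coordinate of any list taken as scaffold length. Of all pooled 20 h regions, 94077 (36.4%) overlapped no 12 h region and only 12212 (4.72%) lay in this sequence. The 985 found in both replicates were 1.11% of the 88998 replicated regions of the whole list. Their density was 5.14 per Mb of this sequence, against 131 replicated regions per Mb in the rest. For all pooled 20 h regions the densities were 63.8 per Mb there and 363 per Mb in the rest. The rest includes the 12 h regions themselves, which 164438 pooled 20 h regions overlapped, so that these contrasts do not measure distance alone. Assembly gaps and sequence to which reads cannot be mapped were not removed, here or for the shifts below.

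The count was set beside fixed circular shifts of the 20 h regions within their scaffolds, which keep each region's length and library support but change its place relative to the 12 h list. Shifts of 10, 20, 50 and 100 kb gave 7790, 10063, 12806 and 13905 replicated regions beyond 5000 bp, which is between 7.91 and 14.1 times the observed 985. For far regions of any support the shifted counts of 30576 to 44976 were 2.50 to 3.68 times the observed 12212. Because the shifts carry library support along, 25.5 to 30.9% of shifted far regions were replicated, against 8.07% of the observed ones. The larger shortage of regions found in both replicates restates this lower share and is no separate evidence.

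Support by the libraries changed with distance from 12 h chromatin. Of the far regions, 8.07% (95% Wilson interval 7.60 to 8.56) had peaks in both biological replicates, against 17.6% of the 79382 regions that lay up to 5000 bp from a 12 h region and 44.9% of the 164438 that overlapped one. Over all pooled 20 h regions the share was 34.4%. Intervals here and below cover counting error only, and neighbouring regions are not independent of each other. The share fell in steps, with 20.0% at up to 500 bp, 13.2% between 2000 and 5000 bp, 9.07% between 5000 and 10000 bp, 8.01% between 10000 and 20000 bp and 5.50% between 20000 and 50000 bp. Beyond 50000 bp it was 5.60% (3.73 to 8.33), which does not differ from the class before it beyond counting error.

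**Figure D1:**
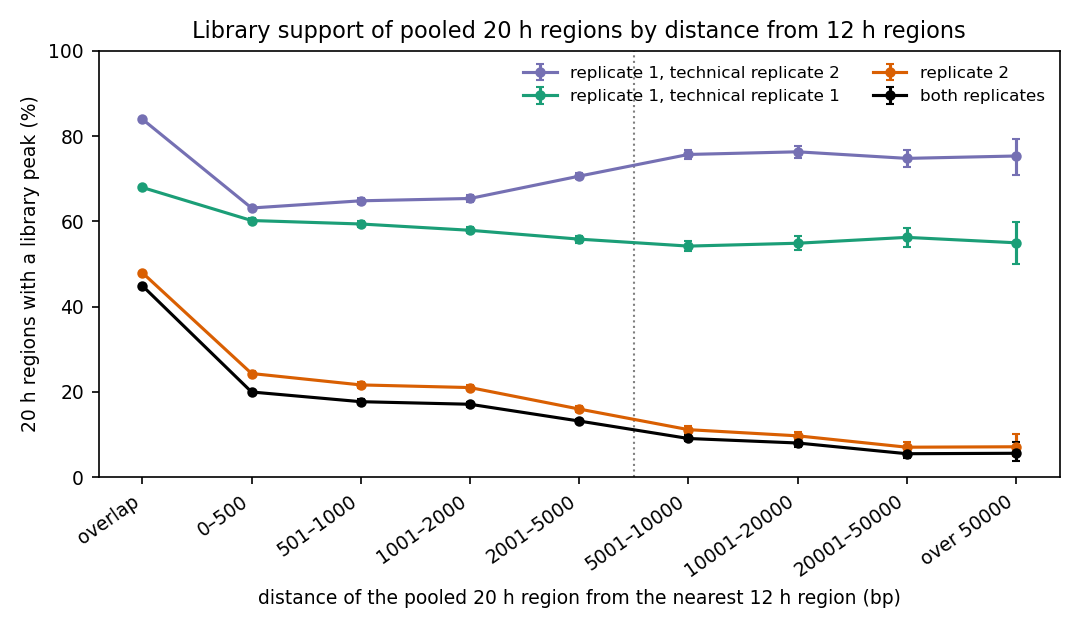
Share of pooled 20 h regions (y axis, %) that overlap a peak of each 20 h library or of both biological replicates, by distance in bp from the nearest 12 h region (x axis, classes). Points are shares, bars are 95% Wilson intervals and the dotted line is the 5000 bp limit: replicate 2 falls to 7.12% beyond 50000 bp, whereas the second technical replicate of replicate 1 stays at 74.8% or more beyond the limit.

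The fall was steepest in replicate 2. Peaks of replicate 2 were found at 9.92% of far regions, against 21.5% of those up to 5000 bp away and 47.9% of overlapping ones. In the first technical replicate the shares were 54.7% of far regions, against 58.7% and 67.9%. In the second technical replicate they were 75.7% of far regions, against 65.3% and 84.0%, so that far regions were found there more often than near ones. The libraries' own peak lists showed the same order, since 4.55% of merged peaks of the first technical replicate, 6.43% of the second and 2.06% of replicate 2 lay more than 5000 bp from a 12 h region. Replicate 2 has the shortest peak list, and its nuclei were prepared as those at 12 h were. It also had the fewest reads after filtering, and the second technical replicate had the most. By the paper's quality report, most reads of the second technical replicate were duplicates before filtering, unlike those of the other libraries at 20 h. Its library complexity fell in the range that the report calls severe bottlenecking. The part of depth, duplication, list length and preparation in this pattern was not tested.

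Among the 985 regions, 379 (38.5%) had a peak in all 3 libraries, 466 had a replicate 1 peak in the second technical replicate alone and 140 in the first alone. All replicated 20 h regions together had a peak in all 3 libraries in 60.0% of cases, with 33.3% of the near and 65.4% of the overlapping ones, so that the far class lay between them and closer to the near one. Without the second technical replicate 519 regions would remain and without the first 845. With replicate 2 left out the rule has to change as well, and 4408 far regions had a peak in both technical replicates, a count that is not of the same form as the other 2.

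Whether the overlap with replicate 2 was tied to position was examined by moving its peaks by fixed distances. Of the 11522 far regions with a replicate 1 peak, 985 or 8.55% overlapped a replicate 2 peak. After shifts of 1 and 2 kb either way the overlap was 210 to 286 regions, or 1.82 to 2.48%, so that the observed number was 3.44 to 4.69 times the shifted ones. The same ratio was 1.71 to 1.89 for regions up to 5000 bp from 12 h chromatin and 2.69 to 3.42 for overlapping regions. With shifts of 10 to 100 kb, which carry peaks from 12 h chromatin into the far stretches, the ratio for far regions was only 1.27 to 2.06. The pooled list was called on reads that included replicate 2, so the observed overlap is not independent of that library, and these ratios are a description.

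**Figure D2:**
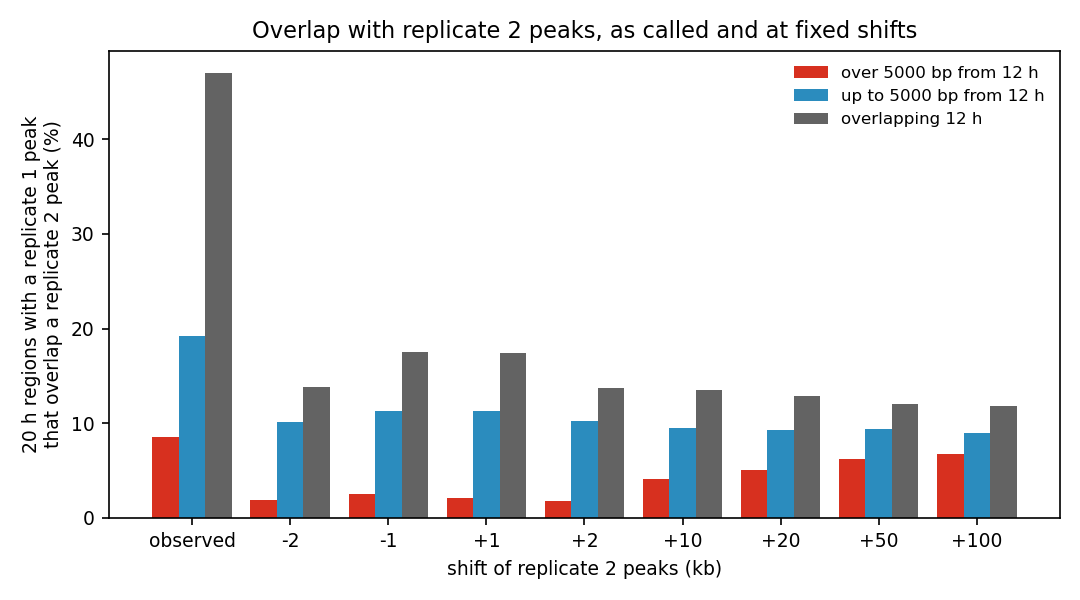
Share of pooled 20 h regions with a replicate 1 peak (y axis, %) that overlap a replicate 2 peak as called and after moving replicate 2 peaks by fixed distances in kb (x axis), for regions over 5000 bp from, up to 5000 bp from, and overlapping a 12 h region. Far regions go from 8.55% as called to between 1.82% and 2.48% at shifts of 1 or 2 kb.

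Replicated far regions were longer than most regions outside 12 h chromatin. Their median length was 283 bp (quartiles 203 and 416), against 208 bp for far regions not found in both replicates, 246 bp for replicated regions up to 5000 bp from a 12 h region and 375 bp for replicated overlapping ones. Lengths ran from 150 bp to 1692 bp, with 158 regions (16.0%) of at least 500 bp, against 6.72% of the near replicated and 30.7% of the overlapping replicated regions. Length and replication were linked at every distance. Of far regions with a replicate 1 peak, 4.74% of those under 200 bp had a replicate 2 peak, 9.02% at 200 to 299 bp, 11.9% at 300 to 499 bp and 19.1% (16.6 to 21.9) from 500 bp up. Overlapping regions of these lengths reached 24.1%, 38.7%, 53.3% and 74.3%, so that the gap between far and overlapping regions was present in each length class. A longer region also has more bases to overlap by.

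Fold enrichment, which is the authors' ratio of reads at a peak to the background set in peak calling, was modest. Its commonest values lay on even steps whose size differed between libraries, so that levels in different libraries are not like measures. Means over libraries, here and below, carry this limit. The lists do not give the background, and whether it differed between the distance classes was not tested. Folds of far, near and overlapping regions may thus not be like measures either. The median over replicated far regions was 3.22 in the first technical replicate (519 regions with a peak), 3.01 in the second (845 regions) and 2.92 in replicate 2 (985 regions). Replicated regions up to 5000 bp from 12 h chromatin had medians of 2.78, 2.58 and 2.70 in the same libraries, below the far ones in each, and replicated overlapping regions had 3.22, 3.15 and 2.92. The library medians were then averaged, first over the technical replicates and then over the biological replicates. The mean of these medians was 3.02 ± 0.13 for replicated far regions, 2.69 ± 0.02 for near and 3.05 ± 0.18 for overlapping ones (SD, n = 2 biological replicates). The replicate 2 median was the same tied value of 2.92 in the far and overlapping classes. These SDs also hold the difference in fold steps between libraries, so that they do not measure biological spread alone. The near class lay below both other classes in each library. With 2 biological replicates this order has no test.

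The far regions outside the class had the same median fold as those within it, at 3.22 in the first technical replicate and 3.01 in the second, and the same quartiles. The groups parted only among the highest values, where 5.20% of replicated far regions and 3.07% of the other far regions with a peak reached a fold of at least 5 in the first technical replicate, and 4.85% and 3.00% in the second. Sorted by the best −log10 p in replicate 1, 12.4% of the weakest far regions (below 2) had a replicate 2 peak, 8.48% at 2 to 3, 6.90% at 3 to 4, 8.33% at 4 to 6 and 11.7% above 6, which is no steady rise. Overlapping regions had 47.9%, 41.6%, 40.2%, 44.3% and 64.0% in the same order, with the highest share in the strongest class. Near regions had 26.2%, 21.3%, 18.1%, 16.3% and 19.0%. A steady rise was thus absent from near and overlapping regions too.

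The median −log10 p was 3.55 in the first technical replicate, 3.34 in the second and 3.24 in replicate 2. Of these peaks, 329 of 519 (63.4%), 490 of 845 (58.0%) and 238 of 985 (24.2%) had a q below 0.05, while over all pooled 20 h regions with a peak in the library the shares were 63.5%, 66.6% and 40.4%. A q below 0.05 in both biological replicates was found for 163 regions, or 16.5%, against 11.1% of near and 38.3% of overlapping replicated regions and 33.7% of all replicated regions. Most of the class thus had a replicate 2 peak that was called by p and missed a q of 0.05.

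Values in replicate 2 fell on few levels. A fold of 2.92 with a −log10 p of 3.24 was shared by 431 of the 985 regions (43.8%), and a further 251 had 2.19 with 2.20 and 121 had 3.65 with 4.38. These 3 pairs of values made up 81.5% of the class. The best replicate 2 peak was 150 bp long, the shortest length in the list, in 518 regions (52.6%). Such short peaks were not particular to the class. Best replicate 2 peaks had a median length of 157 bp in near and 235 bp in overlapping replicated regions, each with a lower quartile of 150 bp. Differences between regions within replicate 2 are therefore coarse. In the technical replicates the 3 commonest pairs made up 49.1% and 52.1%. Ties were not counted in the other classes. From a fold of 2.25 to 2.75 in replicate 2, the share at or above fell from 72.7% to 71.0% in the class. In near replicated regions it fell from 70.1% to 47.4%, so that more of their values lay between the steps.

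High folds were rare in the class but less rare than in near regions, with the limit on the background given above. The counts at a fold of at least 5 were 27 regions (5.20%) in the first technical replicate, 41 (4.85%) in the second and 44 (4.47%) in replicate 2. Near replicated regions reached it in 1.37%, 1.10% and 1.54%, and overlapping replicated regions in 11.7%, 11.9% and 15.4%. The mean over biological replicates ranged from 1.96 to 8.58 with a median of 2.96, and was at least 5 in 26 regions.

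**Figure D3:**
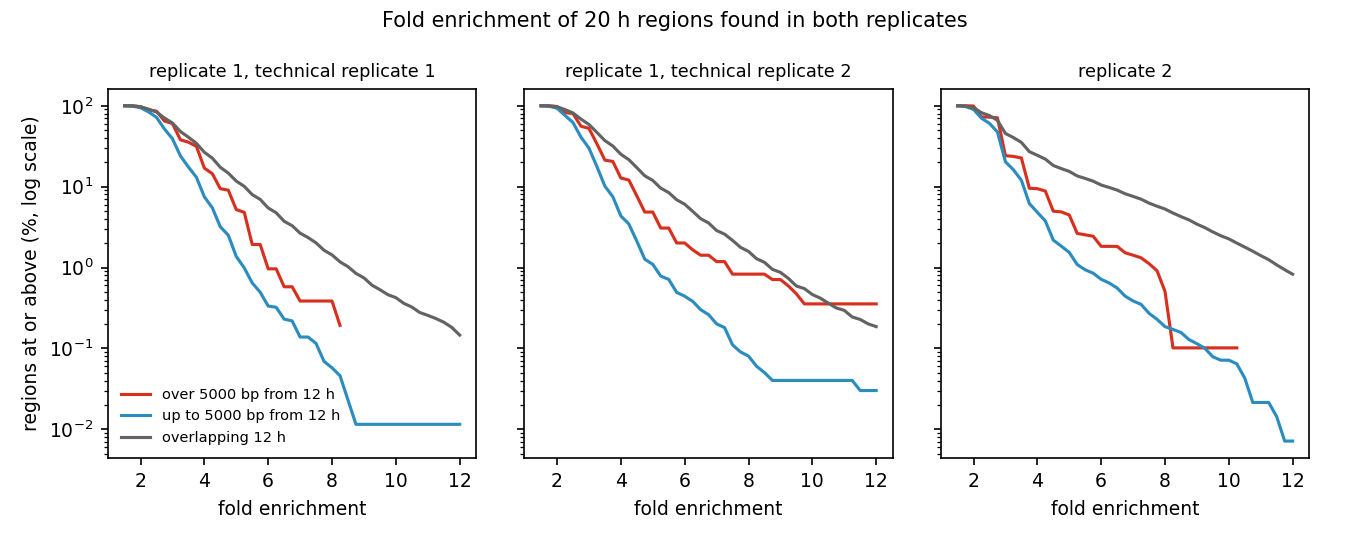
Share of replicated 20 h regions (y axis, %, log scale) whose best peak reaches a given fold enrichment (x axis) in each 20 h library, for regions over 5000 bp from, up to 5000 bp from, and overlapping a 12 h region. At a fold of 5 the far curve lies between the other curves in all 3 libraries, at 5.20%, 4.85% and 4.47%.

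Libraries agreed on strength only weakly. Over the 379 regions with 3 peaks, the Spearman correlation of fold enrichment was 0.30 for the pair of technical replicates, 0.28 for the second technical replicate with replicate 2, and -0.0041 for the first with replicate 2. For the 48266 overlapping regions with 3 peaks they were 0.48, 0.40 and 0.34, and for the 4654 near regions with 3 peaks they were 0.16, 0.14 and 0.09. The far class thus lay between the others for both pairs with the second technical replicate and below both for the first technical replicate with replicate 2. The points are regions of the same libraries with stepped values, so that the correlations are a description. Summit positions were closer than in the other classes for 1 of the 3 pairs of libraries, the second technical replicate with replicate 2. Both were sequenced single-end by the paper's quality report, and the first technical replicate was paired-end. In that report the labels of the pair begin alike and that of the first technical replicate differs, which may mark a sequencing batch. Read type and any such batch thus cannot be told apart from likeness of libraries, for summits or for the correlations. The summits of the second technical replicate and replicate 2 lay a median of 65 bp apart in the 845 regions with both, against 80 bp in near and 79 bp in overlapping replicated regions, while those of the first technical replicate and replicate 2 lay 97 bp apart in each of the 3 classes. Those of the technical replicates lay 97 bp apart, against 97 bp in near and 83 bp in overlapping regions. Between 27.7% and 43.8% of summit pairs in the far class were within 50 bp.

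The best ranked regions were ordered by mean rank of −log10 p over the 3 libraries. First came scaffold 2475 from 96915 to 97612, 698 bp long and 6505 bp from a 12 h region, with folds of 8.30, 5.68 and 7.87 in the first and second technical replicates and replicate 2 (mean 7.43 ± 0.62, SD, n = 2). Its 3 summits lay close together, at 97278, 97252 and 97283. Scaffold 1150 from 118238 to 118461 had 5.36, 12.9 and 8.04 (8.58 ± 0.77), the highest mean fold of all 985, and was 63530 bp from a 12 h region. Scaffold 261 from 300817 to 301416 had 5.36, 6.44 and 5.52 (5.71 ± 0.27). In these 3 regions all libraries exceeded 5.

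A further 3 regions, at ranks 4, 8 and 6, had a fold over 4 in every library, and that at rank 4 also over 5. Scaffold 3749 from 6424 to 6770 had folds of 5.36, 5.58 and 5.11 (5.29 ± 0.25), the smallest SD among the 10 best. Scaffold 612 from 67473 to 67755 had 5.90, 4.29 and 5.84 (5.47 ± 0.53) and was 14964 bp from a 12 h region. Scaffold 291 from 278657 to 279329 had 4.29, 7.30 and 5.11 (5.45 ± 0.48). There the peak of the second technical replicate was 1415 bp long, more than the 673 bp of the region, and its summit lay outside.

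In the other 4 of the best 10, replicate 2 was low. Its fold was 3.65 with a −log10 p of 4.38 in each, a step shared by 121 regions. Scaffold 1836 from 70173 to 70870 had 5.90 and 9.64 in the technical replicates, so that the mean of 5.71 carried an SD of 2.91. Scaffold 464 from 611290 to 611578 had 4.82 and 8.59 there, scaffold 2181 from 93539 to 93912 had 4.29 and 9.45, and scaffold 2477 from 18091 to 18748 had 4.91 and 5.17. The SDs of their means were 2.16, 2.27 and 0.98. The second technical replicate was the highest library in all 4, and their place in the ranking rests on replicate 1.

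**Figure D4:**
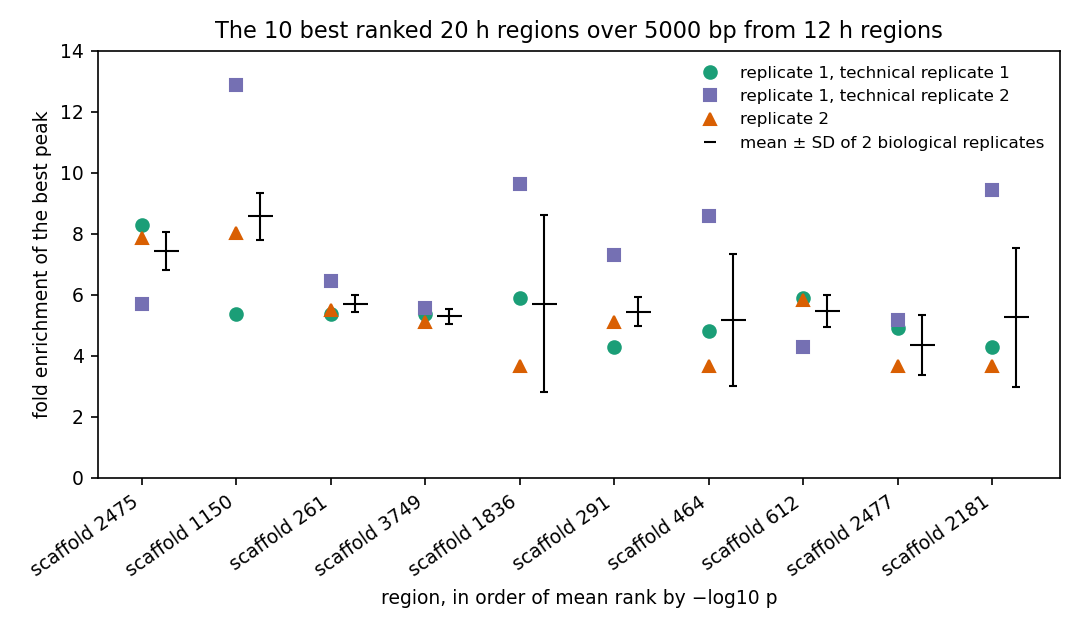
Fold enrichment of the best peak (y axis) of the 10 best ranked replicated far regions (x axis, in rank order) in the 3 libraries at 20 h, with the mean and SD of the 2 biological replicates as black bars. All libraries exceed 5 on scaffolds 2475, 1150, 261 and 3749, and replicate 2 is at 3.65 on scaffolds 1836, 464, 2477 and 2181.

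Distance from 12 h chromatin had a median of 8840 bp (quartiles 6195 and 14457) and a maximum of 211621 bp. The farthest region, on scaffold 560 from 393547 to 393750, was 204 bp long with folds of 2.58 in the second technical replicate and 2.92 in replicate 2, and its nearest other 20 h region was 165910 bp away. Scaffold 773 from 78474 to 78640 was 120387 bp from a 12 h region, with 3.43 and 3.65 in the same libraries and both summits at base 78561. Scaffold 495 from 389378 to 389542 was 116738 bp away, with 5.15 and 5.11. These 3 were short and had no peak in the first technical replicate. The nearest other 20 h region was 101586 bp away on scaffold 773, but only 5494 bp away on scaffold 495.

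The next most distant regions differed from them. Scaffold 1344 from 14417 to 15693, 87671 bp away, was 1277 bp long and had folds of 3.68, 4.29 and 3.65 in the 3 libraries. Scaffold 1255 from 275723 to 276063, 81069 bp away, had 1.96 in the first technical replicate and 2.92 in replicate 2, without a peak in the second technical replicate. At the other end, the regions just inside the limit lay 5002, 5002 and 5008 bp from a 12 h region, with mean folds of 2.30, 2.38 and 4.04. The replicated regions just outside it lay 4994, 4992 and 4990 bp away, with 2.30, 2.70 and 3.33. The ranges on the 2 sides of the limit overlap.

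The 5 longest regions had moderate folds, with means from 3.00 to 4.32. Scaffold 1713 from 44537 to 46228 was 1692 bp long, with folds of 4.81, 3.43 and 2.92 in the first and second technical replicates and replicate 2. Its 3 summits lay at 45812, 44693 and 46067, over 1 kb apart at the widest, so that the libraries did not mark the same point. Scaffold 4230 from 25423 to 26928 had 4.29, 5.68 and 3.65 over 1506 bp. Folds of 5.26, 4.72 and 2.92 over 1332 bp were found on scaffold 1751 from 156748 to 158079. Scaffold 27 from 811023 to 812309 had 4.85, 3.01 and 2.19 over 1287 bp. Replicate 2 was the lowest library in these 4 regions. Scaffold 313 from 530156 to 531462 differed, with 3.27, 2.42 and 3.15 over 1307 bp and its summits at 530851, 530933 and 530970.

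Most replicated far regions had no other of the class beside them, while the class took only 8.07% of far regions. Another pooled 20 h region lay within 1 kb of 442 of the class (44.9%), against 45.1% of the far regions not found in both replicates. Along the scaffolds, 812 of the 985 (82.4%) had no other of the class as a direct neighbour among the pooled 20 h regions, while 173 (17.6%) fell into 79 runs of consecutive ones. There were 67 runs of 2, 9 of 3 and 3 of 4. The 94 neighbouring pairs in these runs were close, with a median gap of 457 bp and 59 gaps under 1 kb. In 16 of the pairs both regions shared the same best peak of a library, so that these pairs are not separate peaks in that library.

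The share of replicated regions was higher after a replicated far region than after another far region. When the next region along the scaffold was also far, it was a replicated one in 17.8% of 529 cases after a replicated region, against 6.53% of 6677 cases after a far region not found in both replicates. Leaving out pairs that shared a library peak, the shares were 15.9% and 6.52%. With the next region under 1 kb away they were 24.7% and 6.77%, at 1 to 5 kb 10.5% and 6.78%, and from 5 kb up 15.2% and 5.67%. The rule used the support of every region counted here, so that these shares are a description.

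The 5 longest runs, with ties taken by start coordinate, showed different layouts. On scaffold 538, 4 regions between 400925 and 419349 formed a pair at each end, with mean folds of 3.18 and 3.06 in the first pair and 2.38 and 2.70 in the second. The second pair rested on a single replicate 2 peak of 150 bp with its summit at 419051, in the gap between the regions. On scaffold 444, 4 regions between 641317 and 651692 included 1 of 1276 bp, with folds of 4.63, 3.77 and 2.91 in the 3 libraries, and 3 of the 4 had a peak in every library. On scaffold 80, 4 regions between 741622 and 744199 covered 1885 of 2578 bp, and a 601 bp peak of the second technical replicate served 2 of them. The run of 3 on scaffold 2883 reached from 3840 to 9088, with mean folds of 2.83 to 3.26. Its regions from 8661 and from 8939 shared a single replicate 2 peak of 329 bp. The run on scaffold 2323 reached from 15644 to 37213, with mean folds of 2.41 to 2.96. None of these 5 runs held a region with a fold of 5 in any library.

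Longer stretches without any 12 h region could hold several replicated far regions with other 20 h regions between them. Of 15536 stretches beyond the limit, 816 (5.25%) held at least 1 of the class. Of these, 683 held 1, 106 held 2, 19 held 3, 7 held 4 and 1 held 5. Their median width was 24481 bp. Stretches at a scaffold's end took 276 of the 985 regions (28.02%), close to their 26.96% of the sequence beyond the limit. The richest stretch lay on scaffold 1929 from 23263 to 76603, with 5 replicated regions among 23 far ones. On scaffold 2475 the last 12580 bp held 4 of the class among 5 far regions, the best ranked region included. These stretches were picked after their values were seen.

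**Figure D5:**
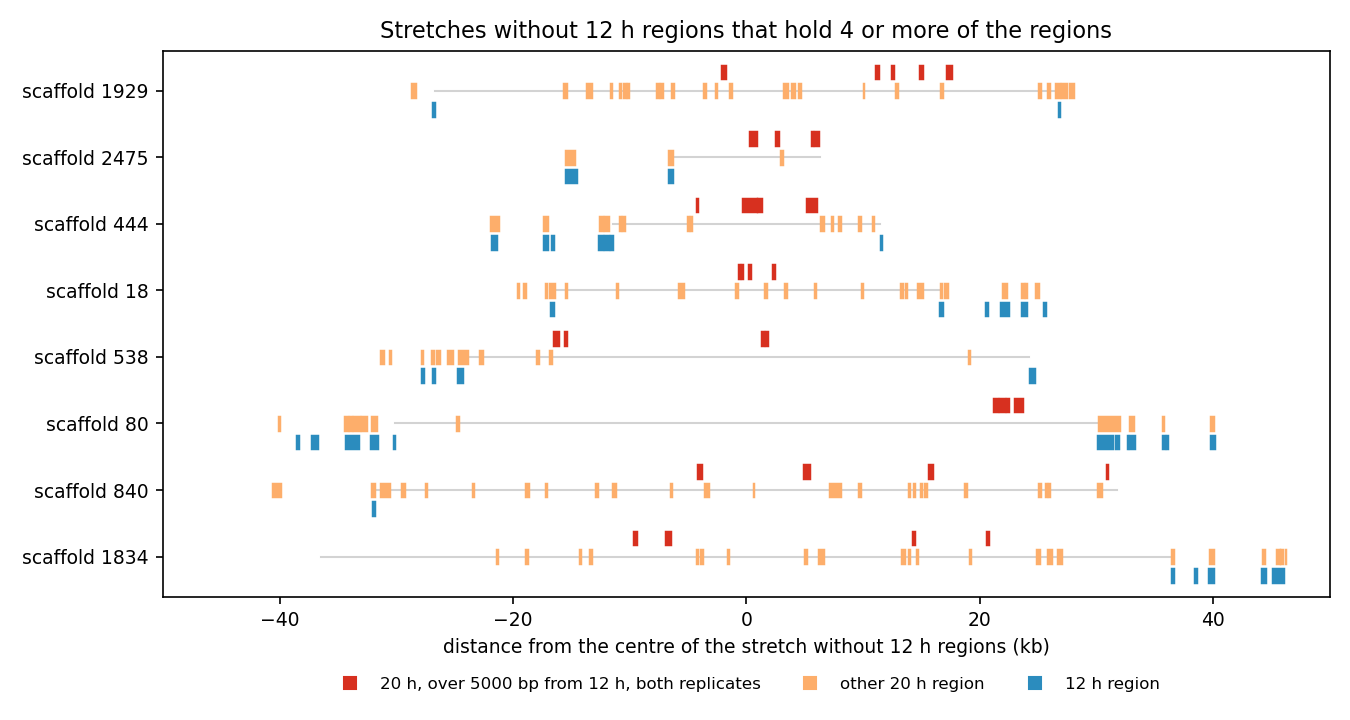
Maps of the 8 stretches without 12 h regions that hold 4 or more replicated far regions, with distance from the centre of each stretch in kb on the x axis and 1 scaffold per row. Grey lines are the stretches; boxes are replicated far regions (red, upper), other 20 h regions (orange) and 12 h regions (blue, lower), close neighbours merge, and scaffold 1929 holds 5 replicated regions among 23 far ones.

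By scaffold the class was widely spread. It occurred on 683 scaffolds, which is 26.4% of the 2588 with a far region, and 481 of these held 1 region each. Scaffold 224 held the most, with 7 over 684116 bp, while scaffolds 1929, 98, 444 and 2 held 6 each. The 5 scaffolds with the most members took 3.15% of the class. Relative to scaffold size these differed, from 3.47 per Mb on scaffold 2 to 47.7 per Mb on scaffold 1929, which had 44 regions at 20 h and only 6 at 12 h. The class was thus not the product of a few scaffolds.

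Genes could be named only through genomic fragments that had been tested for enhancer activity in reporter constructs, whose positions on the same assembly are listed with the gene they were chosen for. None of the 985 regions, and none of the 12212 far ones, overlapped any of the 389 fragments, which belong to 37 regulatory genes. The fragments lie almost wholly within 5000 bp of a 12 h region, and only 0.414% of their bases lie farther. They were not empty at 20 h, since 245 (63.0%) overlapped a 20 h region found in both replicates and 27 overlapped a replicated 20 h only region within 5000 bp of 12 h chromatin. The tested fragments thus left the class unsampled.

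On the scaffolds of these genes there were 21 replicated far regions, at a median of 374173 bp from the nearest fragment. Only 3 came within 50 kb, and they were picked out after their values were seen. On the scaffold of IrxA, an Iroquois homeobox gene, the region on scaffold 688 from 203618 to 203767 lay 10071 bp from a fragment, with folds of 2.58 in the second technical replicate and 2.92 in replicate 2. On that of Z188, scaffold 153 from 305601 to 305901 lay 12632 bp away, with 3.22, 2.15 and 2.19 in the 3 libraries. On that of Unc41, a homeobox gene, scaffold 1710 from 97285 to 97836 lay 26910 bp away, with 3.22, 3.01 and 2.19. In replicate 2 the region near IrxA had the median fold of the class, and the other 2 lay below it, at its lower quartile.

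The scaffold of Hnf1, a homeobox transcription factor gene, held 5 of the class, the most among these genes, although none closer than 161081 bp to a fragment. The strongest of them, on scaffold 129 from 546232 to 546599, had folds of 5.58 in the second technical replicate and 3.65 in replicate 2 (mean 4.62 ± 1.36, SD, n = 2). The other 4 had mean folds from 2.49 to 3.03. The scaffold that holds both Bmp24 and Univin, which encode signalling ligands of the TGF-beta family, had 1 region, on scaffold 344 from 257357 to 257658, 221603 bp from a fragment. Its folds were 3.75, 4.72 and 2.92 (3.58 ± 0.93). Distances of this size do not assign a region to a gene.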

How the data were processed

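The authors mapped ATAC-seq reads to version 3.1 of the *S. purpuratus* genome with the ENCODE pipeline (1.7.0) and called peaks with MACS2 (version not given in the sources used here) at p 0.05, with at most 300000 peaks kept. The deposited pooled lists give region positions only (overlapping peaks merged). The deposited library lists give a fold enrichment ratio, −log10 p, −log10 q and a score of 10 times −log10 p, which was not used. The first technical replicate had 248700 peaks, the second 300000 and replicate 2 160654; the lists hold no read counts, and the quality report, whose read numbers are not printed here, puts replicate 2 lowest and the second technical replicate highest.

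Distance was counted as bases between region ends, and overlap as at least 1 bp. Each region took its peak of highest −log10 p per library. Circular shifts were fixed, not random. Functions were tested on simulated intervals. Regions named are the 10 best by mean rank of −log10 p over 3 libraries, the 5 farthest, the 5 longest, the 5 longest runs, the 5 scaffolds with most members, those in reporter-tested fragments, and 3 on each side of the limit. Fragment positions came from the study's supplementary list, with no measured value used. Members and lists were chosen with earlier results of these data known. The RefSeq gene table is of assembly 5.0 and was not used. Python 3.11.15, numpy 2.4.6, pandas 2.3.3, scipy 1.17.1 and matplotlib 3.10.9 were used.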

Additional observations from a re-analysis of the deposited data

How the results depend on the processing

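The number of replicated far regions, 985, became 5825, 2900, 421 and 130 with limits of 1000, 2000, 10000 and 20000 bp, and 439 and 163 with library peaks of −log10 p of at least 3 and of q below 0.05. Their share among far regions, 8.07%, became 13.3%, 10.8%, 7.03% and 5.51% with these limits and 3.59% and 1.33% with these peaks, 7.52% with an overlap of 50% of the shorter interval and 7.34% with the central 150 bp. The median length, 283 bp, was 255 and 264 bp at 1000 and 2000 bp, 327 and 337 bp with the stricter peaks, 296 bp with regions within 100 bp joined and 267.5 bp for central 150 bp. Regions in runs, 173, became 823, 437, 79 and 29 with the limits and 38 with −log10 p of at least 3. Leaving out each library in turn gave 519 to 4408 regions, shares of 4.25 to 36.1% and median lengths of 295 to 358 bp. The lowest count came without the second technical replicate and the highest without replicate 2, where the rule then asks for both technical replicates. Counts at shifted positions were 7790 for 10 kb and 12806 and 13905 for 50 and 100 kb. Looser limits and stricter peaks change the counts by construction, and no cause was tested for the rest. Scaffolds with at least 10 regions at 12 h, or all scaffolds, left count, share and length within their intervals or within 1.5 times, at 827 and 1207 regions. Taking the peak of highest fold left the 3 library medians as they were, and moved none of the 41 mean folds of named regions by more than the spread. Without the first technical replicate 3 of 39 moved, and without the second 3 of 26. Shifts of replicate 2 peaks were added after the data were seen. No paired analysis was possible because 1 pooled list without replicates stands for the 12 h stage. Depth was not equalised, which limits every absence of a peak, and replicate 2, with the shortest list, limits the counts that need its peaks.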

Other observations

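Some accessible regions at 20 h lay on scaffolds that held no 12 h region, which kept them out of the class. There were 2483 on 1585 scaffolds, the longest of which spanned 151519 bp. Of these regions, 222 or 8.94% (95% Wilson interval 7.88 to 10.1) were found in both biological replicates, a share close to the 8.07% of far regions. Their medians of fold enrichment, 3.22, 3.01 and 2.92 in the first and second technical replicates and replicate 2, were those of the replicated far regions, and their median length was 252 bp against 283 bp. Distance from 12 h chromatin is not defined for them.

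A further 226 far regions had a peak in replicate 2 and none in either technical replicate of replicate 1. Their replicate 2 peaks reached a fold of at least 5 in 39 cases (17.3%), against 44 of the 985 replicated far regions (4.47%), and a q below 0.05 in 103 cases (45.6%) against 238 (24.2%). Pooled far regions with a peak in replicate 2 alone thus had a higher share of strong peaks of that library than those seen by both replicates, though fewer by fold and by q. Of the 3163 far merged peaks of replicate 2, only 1244 (39.3%) lay in the pooled list, so that the rest are not in this comparison. Entry to the pooled list, which was called on reads of all libraries, and support by the libraries defined both sets, so that this was not tested.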
